A study of Lactuca sativa with 12 samples.

Results

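The 26 calcium sensor and calcium signalling genes described here were taken from the 2264 lettuce (Lactuca sativa) genes that the authors called changed in at least 1 of 6 pairwise comparisons of leaf RNA. A gene was included if its RefSeq name contained calmodulin, calcium-binding protein, calcium-dependent protein kinase, calcium-transporting, calcineurin, CBL-interacting, cyclic nucleotide-gated, glutamate receptor or annexin. The choice used names and no measured value, but a gene could enter only through a call, and the number of genes with such names among all genes tested was not counted here. By name, 12 are calcium-binding proteins of the calmodulin type, 3 bind calmodulin, 3 are calcium-dependent kinases, 3 are kinases that act with calcineurin B-like sensors, 1 is a calcium pump and 4 are glutamate receptors. No gene named as a calcineurin B-like sensor, a cyclic nucleotide-gated channel or an annexin was among them.

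Plants were hydroponic seedlings of the cultivar Red oak-leaf. The CdSeNP group received cadmium at 10 mg/L together with biosynthesised selenium nanoparticles at 3 mg/L, the SeNP group the nanoparticles alone at 3 mg/L, the Cd group cadmium alone at 10 mg/L, and the CK group neither. Each group had 3 libraries of poly(A) RNA from whole leaves, 12 in all, which the series text describes as biological replicates. The protocol states the 10 mg/L as a hydrated cadmium chloride and the titles state it as cadmium, so the amount of metal is uncertain. Each of the 6 deposited tables gives read counts and FPKM (a level per gene length and per library size) for the 6 libraries of its pair of groups, and lists called genes alone. A gene therefore has a level in a group only if it was called in a comparison that includes that group. This left 8 of the 26 genes with levels in all 4 groups. In whole leaves, fewer cells of a type and less RNA per cell cannot be told apart.

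Calcium acts as a second messenger in plant cells. Channels such as glutamate receptors let calcium into the cytosol, where calmodulin and calmodulin-like proteins bind it through EF-hand motifs and pass the signal to target proteins. Calcium-dependent kinases join such a sensor and a kinase in 1 protein, CBL-interacting kinases are switched on by separate calcineurin B-like sensors, and calcium ATPases pump the ion out again. In Arabidopsis leaves, several calmodulin-like genes are known to respond quickly to touch, wounding and low oxygen.

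Depth recovered from the files ran from 23.3 to 31.4 M reads per library. The leaf label was met by genes of photosystems, antennae and the small Rubisco subunit, whose called members summed to at least 11491 FPKM in each library of the comparisons that listed them. One control library stood apart. CK 2 was the lowest of the 3 CK libraries at 13 of the 16 calcium genes with CK levels, and its FPKM was a median 0.479 of the mean of CK 1 and CK 3 (quartiles 0.451 and 0.655). Over all 1701 listed genes with CK levels the same median ratio was 1.03, with wider quartiles of 0.729 and 1.98. Counts of calls against CK are therefore given with CK 2 and without it.

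**Figure D1:**
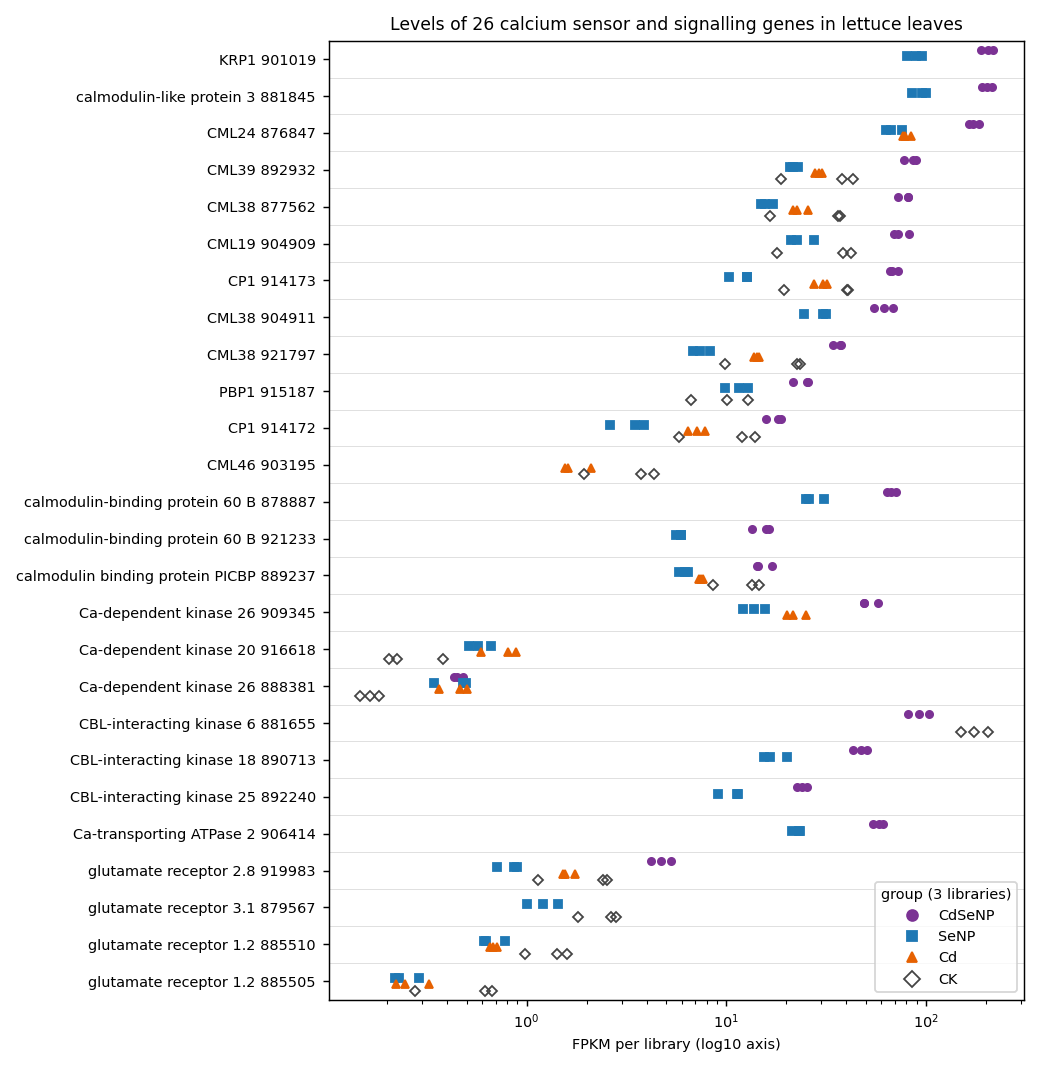
FPKM in each library (log10 axis) of the 26 genes, ordered by role and then by level, with CdSeNP as filled circles, SeNP as squares, Cd as triangles and CK as open diamonds. Where CdSeNP was measured, its 3 libraries lie to the right of SeNP at 19 of 20 genes, and CK 2 is the open diamond on the left at most genes with CK levels.

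The comparison of CdSeNP with SeNP asks what cadmium changed in leaves that also received nanoparticles. Here 19 of the 26 calcium genes were higher in CdSeNP and none was lower. They were 11 of the 12 calcium-binding proteins, all 3 calmodulin-binding proteins, 1 of 3 calcium-dependent kinases, 2 of 3 CBL-interacting kinases, the calcium pump and 1 of 4 glutamate receptors. At each of the 19, the lowest CdSeNP library was above the highest SeNP library, as groups were apart at 99.8% of all 884 genes called in this comparison. In the authors' deposited table their log2 fold changes ran from 1.04 to 2.49, with a median of 1.34, against 1.36 over all 741 genes called higher there. Standard errors (SE) of single genes were worked back from each change and its p. Among all 22862 genes tested, 3.87% were called in either direction, 3.24% higher and 0.625% lower. Since the 26 genes entered through such calls, their count is not read against this share, here or in the comparisons below.

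Among the EF-hand proteins, the widest differences between CdSeNP and SeNP were at a pair of genes for calcium-binding protein CP1, an EF-hand protein whose Arabidopsis counterpart is induced by salt. LOC111914173 (chromosome 6, 203368910 to 203369529, plus strand) had 72.9, 67.5 and 66.3 FPKM in CdSeNP libraries 1 to 3, against 12.7, 10.4 and 12.7 FPKM in SeNP. Its neighbour LOC111914172 (203356273 to 203357016, plus strand) had 18.3, 18.8 and 15.9 FPKM in CdSeNP and 3.51, 2.63 and 3.86 FPKM in SeNP. At both, every CdSeNP library was several times the highest SeNP library. LOC111914173 had, in the authors' deposited table, a log2 fold change of 2.49 (SE 0.099, DESeq2 adjusted p = 2.8e-137). For LOC111914172, the authors' deposited table gave 2.37 (SE 0.16, DESeq2 adjusted p = 5.9e-47). The pair lies 11893 bases apart with 0 annotated genes between, so reads shared between the copies would make their separate levels uncertain.

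Calmodulin-like proteins of the CML38 and CML39 kind followed. CML38 is a sensor induced by wounding and low oxygen in Arabidopsis. CML38 LOC111877562 (chromosome 3, 207347800 to 207348562, plus strand) had 81.5, 81.5 and 72.5 FPKM in CdSeNP, against 15.0, 15.7 and 17.1 FPKM in SeNP. Its log2 fold change in the authors' deposited table was 2.26 (SE 0.086, DESeq2 adjusted p = 6e-150). CML38 LOC111921797 (chromosome 4, 407939359 to 407940131, plus strand) had 37.5, 37.1 and 34.5 FPKM in CdSeNP and 7.36, 6.82 and 8.33 FPKM in SeNP. The ranges of these genes were far apart between the groups, and the second had a log2 fold change of 2.24 (SE 0.11, DESeq2 adjusted p = 2.9e-90) in the authors' deposited table. CML39 LOC111892932 (chromosome 8, 34054119 to 34055070, plus strand), a relative of CML38, had 89.2, 85.9 and 77.4 FPKM in CdSeNP, against 21.7, 20.9 and 22.9 FPKM in SeNP. The authors' deposited table gave it a log2 fold change of 1.90 (SE 0.077, DESeq2 adjusted p = 4e-132).

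The remaining EF-hand genes included the most abundant ones. KRP1 LOC111901019 (chromosome 7, 193677558 to 193678185, plus strand) had 217, 206 and 188 FPKM in CdSeNP and 89.2, 80.5 and 96.1 FPKM in SeNP. Its log2 fold change in the authors' deposited table was 1.16 (SE 0.073, DESeq2 adjusted p = 3.5e-54). CML19 LOC111904909 (chromosome 8, 277321037 to 277322015, plus strand) had 82.2, 72.5 and 69.3 FPKM in CdSeNP, against 22.6, 21.2 and 27.6 FPKM in SeNP. PBP1 LOC111915187 (chromosome 1, 68093424 to 68094111, minus strand), named after an Arabidopsis protein that binds the auxin-related kinase PINOID, had 25.4, 25.7 and 21.6 FPKM in CdSeNP and 11.6, 9.84 and 12.8 FPKM in SeNP. Neither gene overlapped between the groups. The log2 fold change of CML19 was 1.61 in the authors' deposited table (DESeq2 adjusted p = 8.6e-68), and that of PBP1 was 1.04 (DESeq2 adjusted p = 5.4e-16). The other 3 EF-hand genes, named after their values were seen, were calmodulin-like protein 3 LOC111881845, CML24 LOC111876847 and CML38 LOC111904911. Calmodulin-like protein 3, whose CdSeNP level did not differ from that of KRP1 beyond the spread of the libraries, averaged 203 ± 11.0 FPKM in CdSeNP and 93.8 ± 7.74 FPKM in SeNP (SD, n = 3 each). CML24 averaged 175 ± 10.7 FPKM in CdSeNP and 68.5 ± 6.44 FPKM in SeNP, and CML38 LOC111904911 averaged 61.8 ± 6.84 FPKM in CdSeNP and 28.9 ± 3.79 FPKM in SeNP (SD, n = 3 each). CML24 is known in Arabidopsis as TOUCH2, a gene induced by touch. Its log2 fold change in the authors' deposited table was 1.30, against 1.07 at calmodulin-like protein 3 and 1.06 at CML38 LOC111904911. In edgeR refits of the listed genes that each left out 1 library, the calls of PBP1 and CML38 LOC111904911 ended: PBP1 without CdSeNP 1, CdSeNP 2 or SeNP 2, and CML38 LOC111904911 without CdSeNP 1 or SeNP 2. Both fell under the limit of 1 on the log2 fold change there, PBP1 at 0.954 to 0.998 and CML38 LOC111904911 at 0.962 and 0.964. The other 17 calls of this comparison were kept without any 1 library.

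Genes for proteins that bind calmodulin, and so act downstream of the sensor, were called higher as well. Both calmodulin-binding protein 60 B genes entered through CdSeNP over SeNP alone, so this is no trait of the class. Calmodulin-binding protein 60 B LOC111878887 (chromosome 9, 223251302 to 223254583, minus strand) had 71.2, 66.9 and 63.8 FPKM in CdSeNP, against 26.1, 25.0 and 30.9 FPKM in SeNP. Some members of this family in Arabidopsis promote the synthesis of salicylic acid, and the deposited annotation also matches this gene to SAR DEFICIENT 1, 1 of those members. The authors' deposited table gave it a log2 fold change of 1.26 (SE 0.073, DESeq2 adjusted p = 4.1e-64). Both other genes of the class were named after their values were seen. Calmodulin-binding protein 60 B LOC111921233 averaged 15.2 ± 1.50 FPKM in CdSeNP and 5.83 ± 0.210 FPKM in SeNP, and the pathogen-induced calmodulin-binding protein PICBP LOC111889237 averaged 15.2 ± 1.53 FPKM in CdSeNP and 6.16 ± 0.336 FPKM in SeNP (SD, n = 3 each).

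Among the kinases, calcium-dependent protein kinase 26 LOC111909345 (chromosome 6, 48215458 to 48218608, minus strand) had 57.7, 49.1 and 49.0 FPKM in CdSeNP and 15.6, 12.2 and 13.8 FPKM in SeNP. Its CdSeNP libraries were all more than 3 times the highest SeNP library. The log2 fold change was 1.86 (SE 0.14, DESeq2 adjusted p = 7.6e-40) in the authors' deposited table. The CBL-interacting kinases 18 and 25 were named after their values were seen. Kinase 18 (LOC111890713) averaged 47.1 ± 3.55 FPKM in CdSeNP and 17.4 ± 2.45 FPKM in SeNP, and kinase 25 (LOC111892240) averaged 24.0 ± 1.30 FPKM in CdSeNP and 10.6 ± 1.30 FPKM in SeNP (SD, n = 3 each). Calcineurin B-like sensors, which such kinases need, were not among the called genes of any comparison.

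Of the transport genes, the calcium pump and glutamate receptor 2.8 were higher. Calcium-transporting ATPase 2 LOC111906414 (chromosome 4, 352111851 to 352116336, plus strand), named as a pump of the plasma membrane, had 61.2, 58.5 and 54.1 FPKM in CdSeNP, against 23.1, 21.3 and 23.4 FPKM in SeNP. Its log2 fold change was 1.31 (SE 0.062, DESeq2 adjusted p = 4.6e-96) in the authors' deposited table. Glutamate receptor 2.8 LOC111919983 (chromosome 5, 280551185 to 280554511, plus strand), of a family of calcium-permeable channels, was expressed at a lower level but differed more. It had 5.28, 4.20 and 4.70 FPKM in CdSeNP and 0.865, 0.713 and 0.891 FPKM in SeNP, without overlap. Its log2 fold change of 2.49 in the authors' deposited table (SE 0.16, DESeq2 adjusted p = 1.7e-51) equalled that of CP1 LOC111914173 to 2 decimals. Calcium-dependent protein kinase 26 LOC111888381 was the single calcium gene with levels in CdSeNP and SeNP that was not called between them. It averaged 0.454 ± 0.0242 FPKM in CdSeNP and 0.440 ± 0.0819 FPKM in SeNP (SD, n = 3 each), with overlapping libraries.

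**Figure D2:**
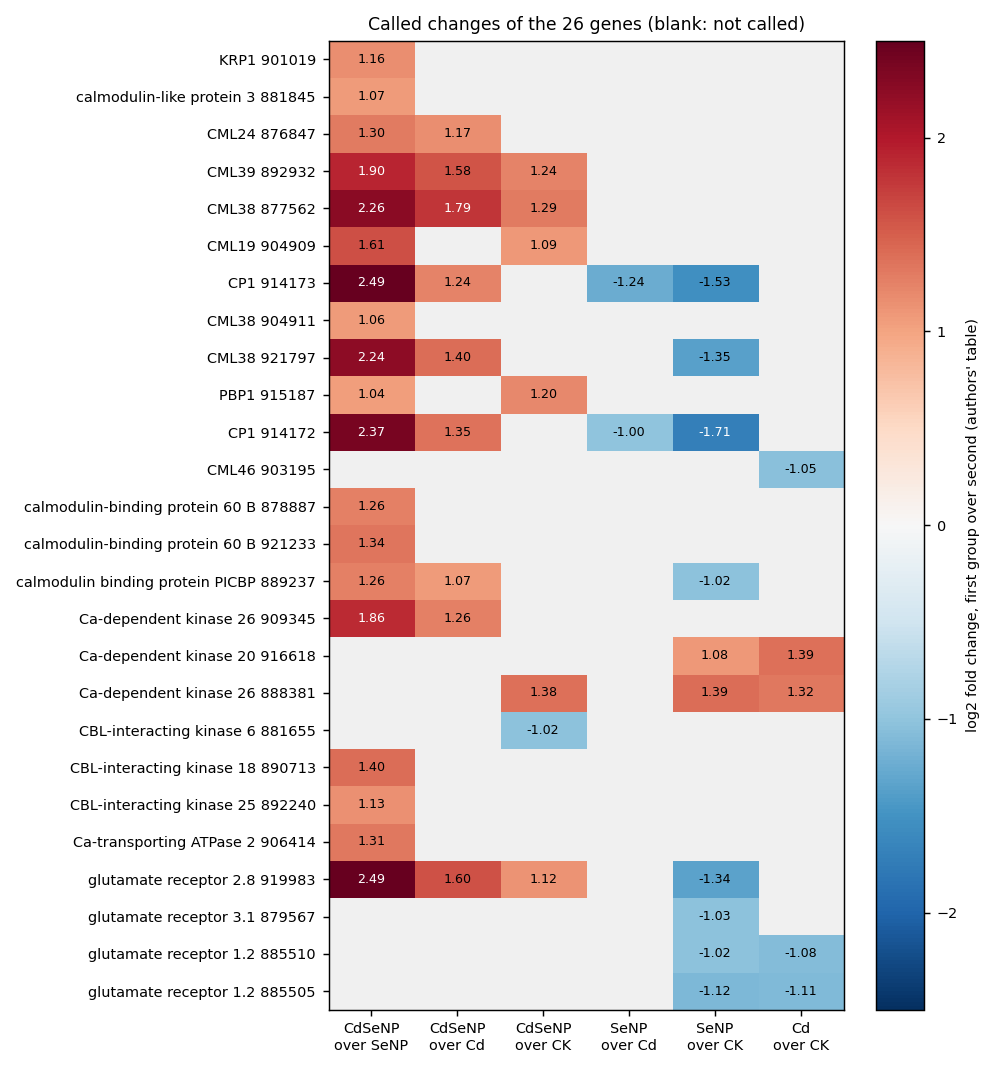
Log2 fold changes of the 26 genes in the authors' deposited tables, first-named group over second, with blank cells where a gene was not called. The CdSeNP over SeNP and CdSeNP over Cd columns hold 19 and 9 increases and no decrease, and the SeNP over CK column holds 8 decreases and 2 increases.

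Other markers moved in the same libraries. Each marker list holds only genes of its kind called in at least 1 of the 6 comparisons, so its counts are not shares of all such genes. Every summed level, here and below, covers only the genes of the list called in that comparison. The sums therefore follow the calls, are not levels of the whole list and cover different genes in different comparisons. Of 65 wounding and handling genes (jasmonate, ethylene-response and WRKY genes), 39 were called higher and none lower in CdSeNP over SeNP, with a summed level of 1871 to 2142 FPKM in CdSeNP libraries and 643 to 779 FPKM in SeNP libraries. Photosynthesis genes went the other way, with 25 of 30 called lower and summed levels of 11491 to 11956 FPKM in CdSeNP and 28206 to 29054 FPKM in SeNP. Of 11 vascular genes, 1 was called higher and 6 lower, with sums of 8.49 to 10.0 FPKM in CdSeNP and 16.7 to 20.2 FPKM in SeNP. Of 20 epidermis genes, 3 were called higher and 1 lower (21.4 to 25.5 FPKM in CdSeNP, 46.0 to 57.6 FPKM in SeNP). Among 3 guard cell genes, 1 was called, at 15.7 to 16.4 FPKM in CdSeNP and listed at 0 in SeNP, and none of 96 genes of dividing cells was called. The part of the cells or responses that these genes mark in the calcium gene differences was not tested.

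The comparison of CdSeNP with Cd asks what nanoparticles changed in leaves that received cadmium. Of the 26 calcium genes, 9 were higher in CdSeNP and none was lower. The 9 were 6 calcium-binding proteins, PICBP, 1 calcium-dependent kinase and glutamate receptor 2.8. The background was 1.87% of 23096 genes called in either direction, 1.09% higher and 0.788% lower. This comparison shares its CdSeNP libraries with the one before. All 9 genes had their lowest CdSeNP library above their highest Cd library, and 97.0% of all 433 called genes were likewise without overlap. Their log2 fold changes in the authors' deposited table ran from 1.07 to 1.79, with a median of 1.35, against 1.20 over all 251 genes called higher there.

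CML38 LOC111877562 led, with 72.5 to 81.5 FPKM in CdSeNP against 25.6, 21.6 and 22.7 FPKM in Cd libraries 1 to 3. It had a log2 fold change of 1.79 (SE 0.083, DESeq2 adjusted p = 1.5e-99) in the authors' deposited table. Glutamate receptor 2.8 LOC111919983, with 4.73 ± 0.537 FPKM in CdSeNP, had 1.75, 1.55 and 1.52 FPKM in the Cd libraries. CML39 LOC111892932, with 84.1 ± 6.09 FPKM in CdSeNP, had 30.1, 28.0 and 29.1 FPKM in Cd. Their log2 fold changes in the authors' deposited table were 1.60 (SE 0.13, DESeq2 adjusted p = 4.9e-31) and 1.58 (SE 0.073, DESeq2 adjusted p = 2.4e-100). The Cd libraries of these 3 genes were closely spaced and lay between the CdSeNP and SeNP libraries. CML38 LOC111921797 averaged 36.4 ± 1.66 FPKM in CdSeNP and 14.2 ± 0.377 FPKM in Cd, and CP1 LOC111914172 averaged 17.7 ± 1.56 FPKM in CdSeNP and 7.12 ± 0.722 FPKM in Cd (SD, n = 3 each). In the authors' deposited table these had log2 fold changes of 1.40 and 1.35, with adjusted p of 2.7e-51 and 1e-23 by DESeq2. The remaining genes called were CP1 LOC111914173, calcium-dependent protein kinase 26 LOC111909345, CML24 and PICBP, with log2 fold changes of 1.24, 1.26, 1.17 and 1.07 in the authors' deposited table. PICBP lost its call in the edgeR refit without CdSeNP 1, where its log2 fold change of 0.975 was under the limit of 1. The other 8 kept their calls without any 1 library.

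Among the marker lists, 12 wounding and handling genes were called higher and 1 lower in CdSeNP over Cd (summed level 521 to 611 FPKM in CdSeNP, 256 to 283 FPKM in Cd), and no photosynthesis gene was called. Epidermis genes had 6 of 20 called lower (46.5 to 79.5 FPKM in CdSeNP, 170 to 244 FPKM in Cd), and 2 of 11 vascular, 1 of 3 guard cell and 1 of 96 dividing-cell genes were called lower. The share of these cells or responses in the calcium gene differences was not tested.

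The comparison of SeNP with CK asks what nanoparticles changed in the absence of cadmium. Of the 26 calcium genes, 8 were lower in SeNP and 2 were higher. Of all 22656 genes tested, 3.31% were called, 2.07% lower and 1.24% higher. The 8 were both CP1 genes, CML38 LOC111921797, PICBP and all 4 glutamate receptors, and the 2 higher genes were the weakly expressed calcium-dependent kinases 20 and 26. In the authors' deposited table, the lower genes had log2 fold changes of -1.71 to -1.02 with a median of -1.23, against -1.30 over all 468 genes called lower. SeNP and CK libraries did not overlap at 9 of the 10 genes, nor at 98.7% of all 750 genes called.

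CP1 LOC111914172 had 2.63 to 3.86 FPKM in SeNP, against 12.1, 5.80 and 14.0 FPKM in CK libraries 1 to 3. CP1 LOC111914173, at 11.9 ± 1.34 FPKM in SeNP, had 40.5, 19.4 and 40.6 FPKM in CK. At both genes CK 2 was nearer to SeNP than to the other controls. The authors' deposited table gave log2 fold changes of -1.71 (SE 0.32, DESeq2 adjusted p = 4.9e-06) at LOC111914172 and -1.53 (SE 0.26, DESeq2 adjusted p = 2.7e-07) at LOC111914173. CML38 LOC111921797, at 7.50 ± 0.764 FPKM in SeNP, had 23.3, 9.88 and 22.7 FPKM in CK, and its log2 fold change in the authors' deposited table was -1.35 (SE 0.29, DESeq2 adjusted p = 7.9e-05). CML38 LOC111877562 was not called here. It had 15.0 to 17.1 FPKM in SeNP and 36.2, 16.6 and 37.1 FPKM in CK, so that CK 2 lay within the range of SeNP.

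All 4 glutamate receptors were called lower in SeNP than in CK, but the 3.1 gene entered through this call alone and the 1.2 pair through calls against CK alone, so this is no trait of the class. Glutamate receptor 2.8 LOC111919983 had 0.713 to 0.891 FPKM in SeNP and 2.42, 1.14 and 2.52 FPKM in CK. Glutamate receptor 3.1 LOC111879567 (chromosome 7, 77218944 to 77232543, minus strand) had 1.43, 1.21 and 1.00 FPKM in SeNP, against 2.64, 1.81 and 2.82 FPKM in CK. Receptors of the 3 clade carry wound signals between leaves in Arabidopsis, although the deposited Swiss-Prot match of this gene is to a receptor of the 2 clade. The log2 fold changes in the authors' deposited table were -1.34 (SE 0.31, DESeq2 adjusted p = 0.00044) at glutamate receptor 2.8 and -1.03 (SE 0.27, DESeq2 adjusted p = 0.002) at glutamate receptor 3.1. Glutamate receptor 1.2 LOC111885510 (chromosome 9, 15971824 to 15974986, plus strand) averaged 0.673 ± 0.0951 FPKM in SeNP and 1.33 ± 0.313 FPKM in CK, without overlap (SD, n = 3 each). Its neighbour, glutamate receptor 1.2 LOC111885505, averaged 0.246 ± 0.0383 FPKM in SeNP and 0.522 ± 0.214 FPKM in CK and did overlap, through CK 2 at 0.276 FPKM. These neighbours lie 17334 bases apart with 2 annotated genes between, and shared reads could blur their levels.

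The calls against CK depended on the fit and on which libraries were used. With all libraries, edgeR fitted to the genes of the table called 0 of the 10 in SeNP over CK, and DESeq2 fitted in the same way called 5. Without CK 2, edgeR called all 10, with log2 fold changes of -2.02 at CP1 LOC111914172, -1.82 at CP1 LOC111914173, -1.67 at CML38 LOC111921797, -1.64 at glutamate receptor 2.8, -1.23 at PICBP and -1.21 at glutamate receptor 3.1. The glutamate receptor 1.2 pair had -1.21 (LOC111885510) and -1.43 (LOC111885505) without CK 2, and calcium-dependent kinases 20 and 26 had 1.38 and 1.36. Without CK 1, CK 3, SeNP 1, SeNP 2 or SeNP 3, each left out alone, edgeR called 0. SeNP at CP1 LOC111914173 was 0.294 of CK 1, 0.614 of CK 2 and 0.293 of CK 3, so the direction was the same against each control. At CML39 LOC111892932, by contrast, SeNP was 0.506 of CK 1 and 0.577 of CK 3 but 1.16 of CK 2. CK 2 also stood apart in the wounding and handling genes called in this comparison (29 of 65 lower, 2 higher), whose summed level was 199 to 232 FPKM in SeNP and 530, 355 and 565 FPKM in CK 1 to CK 3. In the dividing-cell genes (62 of 96 higher, none lower) the sums were 2708 to 2892 FPKM in SeNP and 756, 1819 and 684 FPKM in CK 1 to CK 3. Of 20 epidermis genes 4 were called higher and none lower, with 42.8 to 67.5 FPKM in SeNP and 6.47, 27.7 and 10.7 FPKM in CK 1 to CK 3. Of 11 vascular genes 3 were called higher and 1 lower (11.8 to 13.5 FPKM in SeNP, 6.67 to 7.62 FPKM in CK), 1 of 3 guard cell genes was called higher, and no photosynthesis gene was called. The part of these genes, or of what sets CK 2 apart, in the calcium gene calls was not tested.

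**Figure D3:**
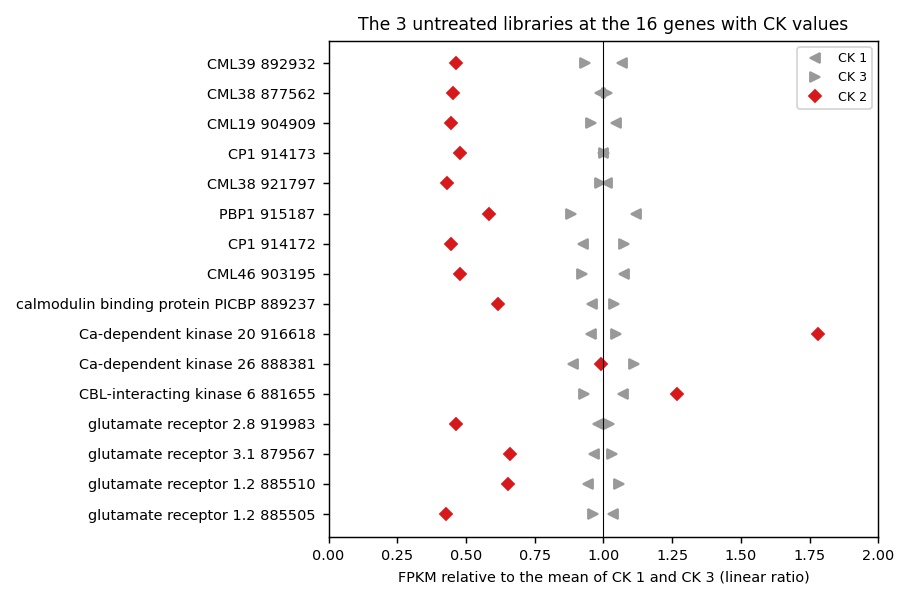
FPKM of each CK library divided by the mean of CK 1 and CK 3 (linear ratio) at the 16 genes with CK levels, with CK 2 as a red diamond and CK 1 and CK 3 as grey triangles. CK 2 lies under 0.6 at 10 of the 16 genes, and above 1.2 at calcium-dependent kinase 20 (1.78) and CBL-interacting kinase 6 (1.27).

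Between the single treatments, SeNP over Cd, both CP1 genes were lower and no calcium gene was higher. Of all 22978 genes tested, 2.18% were called, 1.51% lower and 0.67% higher. CP1 LOC111914173 had 10.4 to 12.7 FPKM in SeNP and 30.4, 27.6 and 32.0 FPKM in Cd. CP1 LOC111914172 had 2.63 to 3.86 FPKM in SeNP and 6.41, 7.12 and 7.85 FPKM in Cd. Neither gene overlapped between the groups, as for 99.4% of all 501 genes called. The authors' deposited table gave log2 fold changes of -1.24 (SE 0.12, DESeq2 adjusted p = 4.6e-24) at LOC111914173 and -1.0 (SE 0.19, DESeq2 adjusted p = 3.9e-06) at LOC111914172. LOC111914172, at the fold limit, lost its call in edgeR refits without Cd 2, Cd 3 or SeNP 2. Another 11 calcium genes had levels in both groups and were not called. Of the wounding and handling genes 1 was called higher and 8 lower, with sums of 46.2 to 56.0 FPKM in SeNP and 124 to 136 FPKM in Cd, and 27 of 30 photosynthesis genes were called higher (35977 to 36431 FPKM in SeNP, 15262 to 16771 FPKM in Cd). Epidermis genes had 1 higher and 5 lower of 20, vascular genes 2 higher of 11, guard cell genes 1 lower of 3 and dividing-cell genes 2 lower of 96. The part of these genes in the CP1 levels was not tested.

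The comparison of CdSeNP with CK asks what the combined treatment changed. Here 6 calcium genes were higher and 1 was lower. Of all 22856 genes tested, 2.57% were called, 1.25% higher and 1.33% lower. None of the 7 calcium genes overlapped between the groups, as was so for 98.8% of all 588 genes called. The higher genes were CML38 LOC111877562, CML39, CML19, PBP1, glutamate receptor 2.8 and calcium-dependent kinase 26 LOC111888381, and the lower gene was CBL-interacting kinase 6. CML38 LOC111877562 had 72.5 to 81.5 FPKM in CdSeNP and 36.2, 16.6 and 37.1 FPKM in CK. It was 2.17 times CK 1, 4.73 times CK 2 and 2.12 times CK 3, and its log2 fold change in the authors' deposited table was 1.29 (SE 0.38, DESeq2 adjusted p = 0.0076). CML39 had 77.4 to 89.2 FPKM in CdSeNP, against 43.2, 18.9 and 37.9 FPKM in CK, with a log2 fold change of 1.24 (SE 0.37, DESeq2 adjusted p = 0.0095) in the authors' deposited table. All CdSeNP libraries of both genes were above all controls, with the smallest margin against CK 1 or CK 3.

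PBP1 LOC111915187 had 21.6 to 25.7 FPKM in CdSeNP and 12.8, 6.70 and 10.1 FPKM in CK, with a log2 fold change of 1.20 (SE 0.22, DESeq2 adjusted p = 2.2e-06) in the authors' deposited table. CML19 LOC111904909 had 69.3 to 82.2 FPKM in CdSeNP and 42.1, 17.9 and 38.5 FPKM in CK, with a log2 fold change of 1.09 (SE 0.39, DESeq2 adjusted p = 0.04) in the authors' deposited table. Glutamate receptor 2.8 had 4.20 to 5.28 FPKM in CdSeNP and 2.42, 1.14 and 2.52 FPKM in CK, and its log2 fold change in the authors' deposited table was 1.12 (SE 0.26, DESeq2 adjusted p = 0.00043). CBL-interacting kinase 6 LOC111881655 (chromosome 7, 71788876 to 71790472, plus strand) went the other way, with 81.2, 92.6 and 104 FPKM in CdSeNP against 174, 206 and 151 FPKM in CK. It had the highest group mean of its class, and the authors' deposited table gave a log2 fold change of -1.02 (SE 0.13, DESeq2 adjusted p = 1.5e-13). An edgeR refit of the listed genes called 2 of the 7, and edgeR without CK 2 also called 2, which were CML38 LOC111877562 (log2 fold change 1.00) and calcium-dependent kinase 26 LOC111888381 (1.36). Without CK 2 the others kept their direction but fell under the fold limit, at 0.98 for PBP1, 0.96 for CML39, 0.84 for glutamate receptor 2.8, 0.79 for CML19 and -0.91 for CBL-interacting kinase 6. Without CK 1, or without any 1 CdSeNP library, edgeR called 0 of the 7, and without CK 3 it called 1. In this comparison 7 of 65 wounding and handling genes were called higher and 7 lower, with sums of 259 to 288 FPKM in CdSeNP and 163, 90.7 and 180 FPKM in CK 1 to CK 3. Of 30 photosynthesis genes 25 were called lower (12908 to 13470 FPKM in CdSeNP, 28796 to 30574 FPKM in CK). Of 96 dividing-cell genes 17 were called higher, with 149 to 187 FPKM in CdSeNP and 44.6, 114 and 40.0 FPKM in CK 1 to CK 3. Of 20 epidermis genes 1 was called higher and 2 lower, 1 of 3 guard cell genes was higher and listed at 0 in CK, and no vascular gene was called. The part of these genes in the result was not tested.

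The comparison of Cd with CK asks what cadmium changed on its own. It gave 2 higher and 3 lower calcium genes. Of all 23049 genes tested, 4.85% were called, 3.47% higher and 1.39% lower. Of the 5 calcium genes, 3 did not overlap between the groups, compared with 98.5% of all 1119 genes called. CML46 LOC111903195 (chromosome 8, 75600757 to 75601287, minus strand), named as a probable calcium-binding protein, had 2.10, 1.62 and 1.56 FPKM in Cd and 4.36, 1.95 and 3.74 FPKM in CK, with CK 2 within the range of Cd. Glutamate receptor 1.2 LOC111885510 had 0.659, 0.709 and 0.681 FPKM in Cd, against 1.42, 0.982 and 1.59 FPKM in CK. In the authors' deposited table the log2 fold changes were -1.05 (SE 0.39, DESeq2 adjusted p = 0.033) at CML46 and -1.08 (SE 0.26, DESeq2 adjusted p = 0.00047) at LOC111885510. The neighbour of LOC111885510, glutamate receptor 1.2 LOC111885505, had a log2 fold change of -1.11 there. Scaling by library totals in place of the authors' size factors moved all genes of this comparison by 0.12 on the log2 scale and ended the calls of these 3 lower genes. The edgeR refit called 0 of the 5 with all libraries and 4 without CK 2. It called 0 without CK 1, without CK 3 or without any 1 Cd library. Without CK 2 the log2 fold changes were -1.33 at CML46, -1.27 at LOC111885510, -1.43 at LOC111885505, 1.69 at calcium-dependent kinase 20 and 1.29 at calcium-dependent kinase 26 LOC111888381, which missed the limit (adjusted p = 0.059, edgeR).

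Calcium-dependent kinases 20 and 26 were the 2 calcium genes called higher in Cd over CK. They were chosen for description after their values were seen, and both are below 1 FPKM in every library. Calcium-dependent kinase 20 LOC111916618 had 0.573, 0.513 and 0.665 FPKM in SeNP, 0.810, 0.887 and 0.590 FPKM in Cd, and 0.205, 0.381 and 0.224 FPKM in CK. Calcium-dependent kinase 26 LOC111888381 averaged 0.454 ± 0.0242 FPKM in CdSeNP, 0.440 ± 0.0819 FPKM in SeNP, 0.445 ± 0.0729 FPKM in Cd and 0.164 ± 0.0181 FPKM in CK (SD, n = 3 each). Every treated library of both genes was above every CK library. For LOC111888381 the authors' deposited table gave log2 fold changes over CK of 1.38 in CdSeNP, 1.39 in SeNP and 1.32 in Cd, and CK 2 was 0.992 of the mean of CK 1 and CK 3. For LOC111916618 the values were 1.08 in SeNP and 1.39 in Cd, and CK 2 was 1.78 times that mean. These comparisons share the CK libraries. Among the listed marker genes in Cd over CK, 93 of 96 dividing-cell genes, all of them called somewhere, were called higher, with sums of 3758 to 5123 FPKM in Cd and 924, 2393 and 857 FPKM in CK 1 to CK 3. Of 30 photosynthesis genes 26 were called lower (12688 to 13648 FPKM in Cd, 27985 to 29809 FPKM in CK). Of 65 wounding and handling genes 6 were called higher and 12 lower, and of 20 epidermis genes 12 were called higher and 4 lower. All 3 guard cell genes were called higher, with sums of 28.5 to 33.2 FPKM in Cd and 2.88, 8.30 and 3.92 FPKM in CK 1 to CK 3, and of 11 vascular genes 1 was called higher and 1 lower. Their part in the calcium gene levels was not tested.

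The 8 genes measured in all 4 groups show the order of the levels. At 7 of them, CML38 LOC111877562, CML38 LOC111921797, CML39, both CP1 genes, PICBP and glutamate receptor 2.8, the means ran from CdSeNP as the highest through CK and Cd to SeNP as the lowest. All 7 had been called higher in CdSeNP over SeNP and in CdSeNP over Cd, so CdSeNP above SeNP and Cd is no separate result. The lowest CdSeNP library was above all 9 other libraries at 6 genes, the exceptions being PICBP, through CK 3, and calcium-dependent kinase 26 LOC111888381. The lowest Cd library was above the highest SeNP library at 7 genes. CK and Cd, neighbours in this order, overlapped at 6 of the 8. CK was above Cd without overlap at PICBP alone, with 7.33 to 7.64 FPKM in Cd and 8.61 to 14.5 FPKM in CK. CK 1 and CK 3 were both above the highest Cd library at 10 of the 12 calcium genes with Cd and CK levels, and CK 2 was below the lowest Cd library at 8 of the 12. The same counts were not made over all listed genes, so none is read as particular to the calcium genes.

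**Figure D4:**
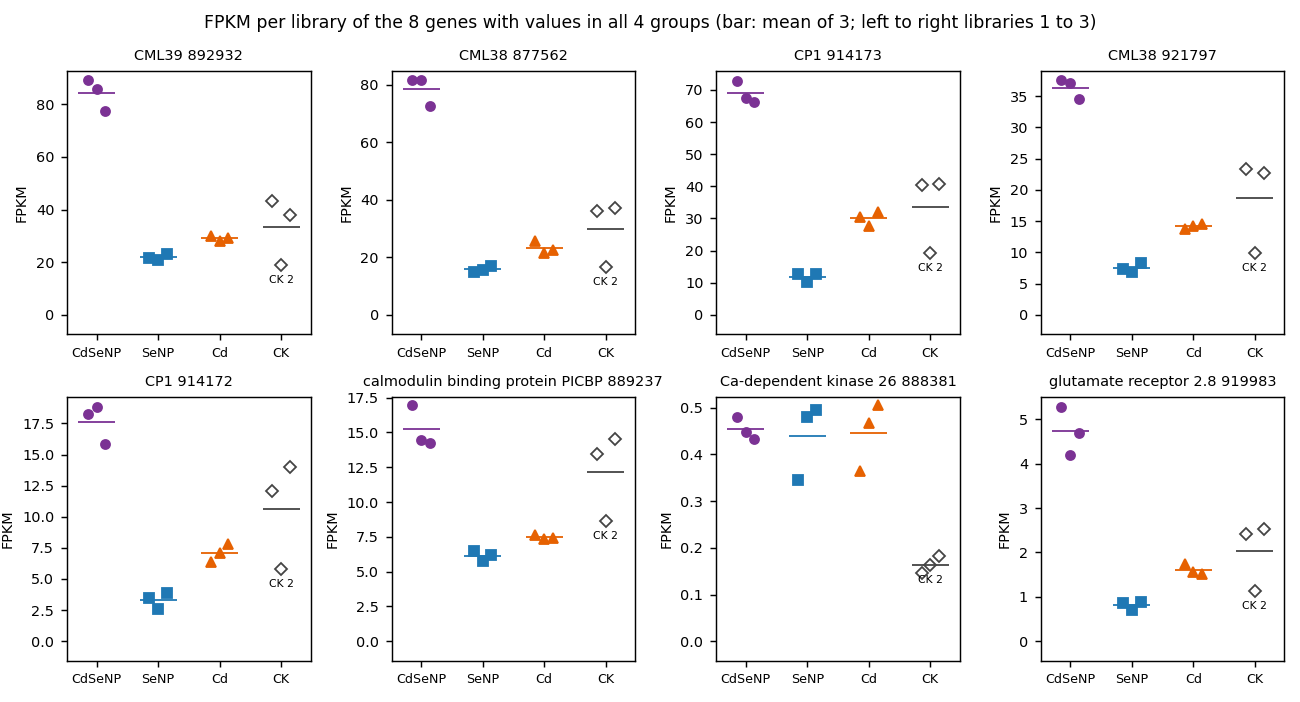
FPKM per library (points, libraries 1 to 3 from left to right) and group mean (bar) of the 8 genes with levels in CdSeNP, SeNP, Cd and CK. At 7 genes the mean is highest in CdSeNP and lowest in SeNP, with CK 2 below the other controls, and at calcium-dependent kinase 26 LOC111888381 the libraries of CdSeNP, SeNP and Cd overlap and all lie above CK.

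Whether the response to cadmium differed with nanoparticles was tested as an interaction, (CdSeNP minus SeNP) minus (Cd minus CK) on the log2 scale, with edgeR's quasi-likelihood test and Benjamini-Hochberg adjustment over the 575 genes with counts in all 12 libraries. All 8 calcium genes passed, 7 with a positive and 1 with a negative value. The 7 had all been called higher in CdSeNP over SeNP, which is part of the tested difference. The gene with the negative value, calcium-dependent kinase 26 LOC111888381, had been called higher in Cd over CK, the part that is subtracted. The p-values of all 8 are therefore not independent of how the genes were chosen. Of the 575 genes, each of which was called in more than 1 comparison, 73.7% passed in either direction and 45.2% with a positive value. At CML38 LOC111877562 mean FPKM was higher in CdSeNP than in SeNP by 2.30 on the log2 scale, whereas Cd over CK was -0.36, and the interaction was 2.74 (adjusted p = 6.1e-05, edgeR). Glutamate receptor 2.8 had 2.52 with nanoparticles and -0.34 without them, and an interaction of 2.94 (adjusted p = 5.9e-05, edgeR). At PICBP the values were 1.31 with nanoparticles and -0.71 without them, with an interaction of 2.09 (adjusted p = 5.5e-05, edgeR). Calcium-dependent kinase 26 LOC111888381 had the opposite sign, with 0.046 with nanoparticles and 1.44 without them (interaction -1.31, adjusted p = 0.0037, edgeR). All 8 passed without CK 2 as well, where the positive values ran from 2.30 at PICBP to 3.37 at CP1 LOC111914172.

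**Figure D5:**
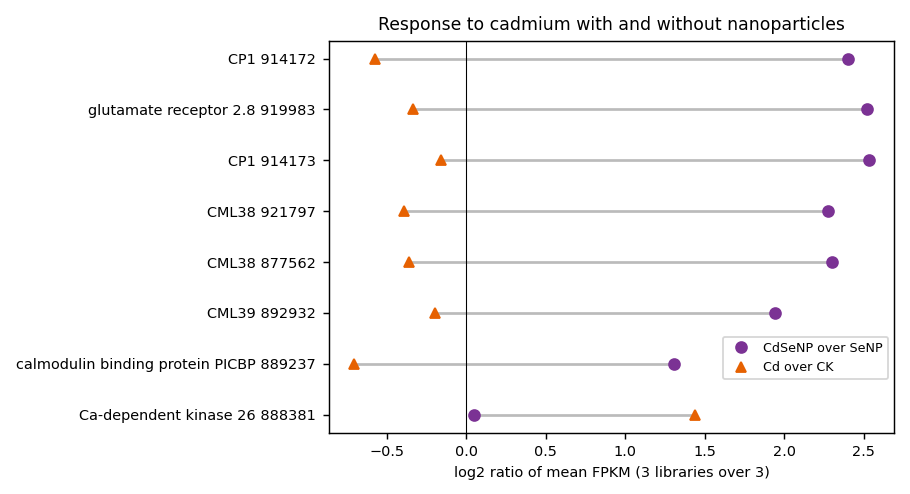
Log2 ratio of mean FPKM (3 libraries over 3) for the response to cadmium with nanoparticles (CdSeNP over SeNP, circles) and without them (Cd over CK, triangles) at the 8 genes with levels in all groups. The circles lie between 1.31 and 2.53 and the triangles below 0 at 7 genes, and the order is turned round at calcium-dependent kinase 26 LOC111888381.

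Genes of the wider calcium pathway were taken from a separate list of names, which matched 20 genes outside the 26, all of them called in at least 1 comparison. The match was by word alone and took in 1 gene named as a potassium channel, two-pore potassium channel 1 (LOC111902252). That gene is among the lower calls in Cd, SeNP and CdSeNP over CK. In CdSeNP over SeNP, 9 of the 20 were higher and none was lower, where 3.24% of all genes tested were called higher and 0.625% lower. Like the 26, these genes entered through such calls, and nothing is read from the count. They included calcium uniporter protein 2 (LOC111876687), which carries calcium into mitochondria, at 241 ± 21.3 FPKM in CdSeNP and 79.9 ± 6.61 FPKM in SeNP, and the exchanger NCL (LOC111919987) at 86.5 ± 7.00 FPKM in CdSeNP and 34.7 ± 0.823 FPKM in SeNP (SD, n = 3 each). Respiratory burst oxidase homolog C (LOC111910489), a calcium-activated enzyme that makes superoxide, had 8.62 ± 0.729 FPKM in CdSeNP and 3.69 ± 0.238 FPKM in SeNP (SD, n = 3 each). The authors' deposited table gave these a log2 fold change of 1.55, 1.27 and 1.18. In the other comparisons the list had few or mixed calls, with 0 higher and 1 lower in CdSeNP over Cd, 2 higher and 4 lower in CdSeNP over CK, 1 higher and 3 lower in SeNP over Cd, 3 higher and 5 lower in SeNP over CK, and 4 higher and 3 lower in Cd over CK.

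Within a group, the libraries also kept an order across the calcium genes. CdSeNP 1 was the highest CdSeNP library at 18 of 21 genes with CdSeNP levels and CdSeNP 3 the lowest at 19. SeNP 2 was the lowest SeNP library at 20 of 24 genes and SeNP 3 the highest at 19. Given these shared orders, the 26 genes are not treated as independent, and counts of genes do not add replicates of a condition. The same orders were not counted over all listed genes, so they are not read as particular to the calcium genes. In structure, the 12 calcium-binding proteins all carried an EF-hand annotation and had short gene models of 531 to 1090 bases, the 6 kinases carried a protein kinase domain, and 3 of the 4 glutamate receptors carried a receptor ligand-binding region. Besides the CP1 and glutamate receptor 1.2 pairs, CML19 LOC111904909 and CML38 LOC111904911 lie 24688 bases apart on chromosome 8 with 2 annotated genes between, on opposite strands.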

How the data were processed

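Poly(A) RNA of whole lettuce leaves was sequenced after TruSeq library preparation on an Illumina platform, per the labels' protocols. Per the submitters' processing notes, the authors used DESeq2 1.34.0, StringTie 2.2.1, HISAT2 2.2.1, Trimmomatic and fastp 0.23.0. Which program counted reads, whether by strand, and on which build and annotation is not given in the sources used here. Per the file headers, the authors deposited unnormalised whole-number counts per gene and library. FPKM of these libraries, a level per gene length and per library size, are deposited beside the counts. The same deposited tables hold the authors' log2 fold changes with their raw and adjusted p-values. Every listed gene passed the limits of 0.05 on adjusted p and of 1 on the size of the log2 fold change, so no fit across all genes could be run and the authors' call is the test used.

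The number of genes tested was worked back from adjusted and raw p, and library totals from counts, FPKM and gene models. Coordinates are whole-gene spans from the files and equal those of the RefSeq annotation Lsat_Salinas_v11 at all 26 genes. Listed genes were refitted with edgeR 4.0.16 and DESeq2 1.42.0 (R 4.3.3), using size factors recovered from the authors' fold changes and adjusting over the recovered number tested. These fits and the interaction test were checked on simulated data with the same spread for every gene and no library set apart. That setting does not cover a control such as CK 2. The check therefore does not bear on the calls against CK or on the interaction, which uses CK 2 as well. No exact permutation test was run, since groups of 3 allow no p under 0.1. The p-values measure the spread between these libraries. Genes described in full were CML38 LOC111877562, the 5 largest changes per comparison at 1 FPKM or more in the higher group, genes called in 4 or more comparisons, and the gene with the highest mean in each role class. PICBP, whose name has no hyphen, was put with the calmodulin-binding proteins. The members, gene lists and rules were chosen with earlier results of these data known, so no count over them is independent support. Alternatives were library totals, an adjusted p under 0.01, a log2 fold change of 2 or more in size, a floor of 1 FPKM, both refits, the replicate number as a block and leaving out each library. Another matched the name words on the deposited NR description of each gene in place of its RefSeq name.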

Additional observations from a re-analysis of the deposited data

Results flagged for a closer look

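The difference between the cadmium response with nanoparticles (CdSeNP minus SeNP) and without them (Cd minus CK) passed edgeR's interaction test at all 8 calcium genes with counts in all libraries. The value was 2.74 at CML38 LOC111877562, 2.75 at CML38 LOC111921797 and 2.22 at CML39 LOC111892932 on the log2 scale. At the CP1 genes it was 3.07 (LOC111914172) and 2.77 (LOC111914173), at PICBP LOC111889237 2.09 and at glutamate receptor 2.8 LOC111919983 2.94. Calcium-dependent protein kinase 26 LOC111888381 had a negative value of -1.31. The adjusted p ran from 5e-05 at CP1 LOC111914173 to 0.0037 at calcium-dependent protein kinase 26. Over all alternatives the lowest and highest values of CML38 LOC111877562 were 2.54 and 3.04. Every gene fitted had been called in more than 1 comparison, and 73.7% of the 575 passed. The genes with a positive value had all been called higher in CdSeNP over SeNP. Calcium-dependent protein kinase 26 LOC111888381 had been called higher in Cd over CK, which the test subtracts. The test is therefore not independent of how any of the 8 genes were chosen. The 8 of 8 is therefore not read as particular to the calcium genes.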

How the results depend on the processing

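No call of a calcium gene changed sign under any alternative. The interaction held at 8 genes in every alternative run. CdSeNP over SeNP kept 19 calls and CdSeNP over Cd 9 calls with DESeq2, with edgeR and with the replicate block. With the limit on the log2 fold change raised to 2, 5 calls were left in CdSeNP over SeNP and 0 in each of the other 5 comparisons, by the construction of that limit. In Cd over CK, with 5 calls in the authors' table, 2 were left with library totals, 2 at an adjusted p under 0.01, 2 at 1 FPKM or more, 2 with DESeq2 and 0 with edgeR. Library totals changed the split of all genes called in Cd over CK to 799 higher and 224 lower, against 799 and 320 in the authors' table. Only listed genes could be rescaled, so this upward shift could end lower calls but add no higher ones. In SeNP over CK, with 10 calls, 5 were left with DESeq2 and 0 with edgeR, and in CdSeNP over CK, with 7 calls, 2 with edgeR. The cause was not tested. Refits cover listed genes alone.

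With the replicate number as a block, edgeR called 2 genes in Cd over CK, 4 in SeNP over CK, 0 in CdSeNP over CK and 1 in SeNP over Cd. The numbers did not pair the libraries: no comparison had all 3 correlations of same-numbered libraries over 0.1, and they ran from -0.227 to 0.386 over 575 genes.

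Leaving out 1 library at a time, edgeR called 17 to 19 genes in CdSeNP over SeNP, 8 to 9 in CdSeNP over Cd, 1 to 2 in SeNP over Cd, 0 to 2 in CdSeNP over CK, 0 to 10 in SeNP over CK and 0 to 4 in Cd over CK. The highest counts in SeNP over CK and Cd over CK came without CK 2, where 16 of the 22 calls against CK were kept. Of the 52 calls, 7 lie at genes under 1 FPKM in both groups. How depth bears on them was not tested.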
